A study of Homo sapiens with 6 samples.

Results

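The centromere of chromosome 12 was examined as the set of nascent DNA peaks whose midpoints lay between 34.5 and 37.4 Mb of chromosome 12 in hg38, a window of 2.9 Mb. It held 271 of the 18840 peaks in the deposited consensus lists, 109 of 10285 in the control list and 162 of 8555 in the ERCC6L2-/- list. Control (wild-type) and ERCC6L2-/- U2OS cells, a human osteosarcoma line, were grown in DMEM with serum and given a 2 h pulse of BrdU, which replaces thymidine in DNA as it is replicated. BrdU-labelled DNA was then immunoprecipitated and sequenced, with 3 samples of each genotype and BrdU-labelled E. coli DNA as a spike control. The cells were not synchronised, the knockout lines had been grown from single CRISPR/Cas9-edited cells, and the clone used for sequencing is not given in the sources used here. The 3 samples of a genotype were merged by the authors into 1 list before deposit, so that no spread between samples could be computed, read depth is unknown, and no test was made between genotypes. The 95% Wilson intervals given here cover counting error only.

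A peak was called shared when it overlapped a peak of the other list by at least 1 base, and otherwise control-only or knockout-only. The window was chosen by its measured peaks, and the class of a peak is itself such a measure, so the numbers of members and their classes describe the region and are not evidence for a difference between genotypes. The members nearest the limits lay well inside them. The first control peak had its midpoint 331 kb and the first knockout peak 330 kb after the start of the window, and the last ones lay 152 kb and 134 kb before its end. Outside, the nearest control peaks were 226 kb before and 719 kb after the window, and the nearest knockout peaks 264 kb before and 21.1 kb after it.

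Human centromeres are built on alpha-satellite, a DNA monomer repeated head to tail. On each chromosome several monomers that differ from one another form a higher-order unit, and near-identical copies of that unit make up an array on which the centromeric histone CENP-A and the kinetochore assemble. Many monomers carry the CENP-B box, the binding site of the centromere protein CENP-B. ERCC6L2 is a SNF2-family ATPase, and the study compared nascent DNA of the genotypes to find the loci where replication differs without it. Centromere arrays in hg38 are computed models, so the order of copies along the model need not be their order in a cell.

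The sequence of the window matched its label. A single run of alpha-satellite from chr12:34770001-37185000 (2.415 Mb, called the array below) held 107 of the 109 control peaks and 159 of the 162 knockout peaks. The others lay in shorter alpha-satellite runs of the window, and GENCODE release 44 annotates 0 genes there. The array was most like itself at a distance of 340 bases, with 65.6% of bases identical, and next at 1359 bases, with 60.6%. These are the lengths of a pair of monomers, or dimer, and of a unit of 4 dimers. The median over all distances from 20 to 4000 bases was 26.3%. These shares compare bases at a fixed distance without gaps, so they are lower than the identity of aligned copies. When aligned, dimers of the array were a median of 98.8% identical to the most similar dimer of a reference unit described below. The 4 dimers of that unit were 86.8 to 94.4% identical to one another. The dimer that recurred most often in peaks is shown because almost all of the sequence under them is a variant of it. It was found without a change in 64 of 840 dimers that lay in peaks of either list, and 194 times in the array, and its monomers were 66.1% identical. Both monomers are printed 5′ to 3′ on the plus strand of hg38, with the fixed bases of the CENP-B box in capitals.
monomer with the box: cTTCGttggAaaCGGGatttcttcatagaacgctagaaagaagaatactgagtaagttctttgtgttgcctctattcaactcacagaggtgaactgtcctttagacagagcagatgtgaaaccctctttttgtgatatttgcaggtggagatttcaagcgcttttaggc
monomer without the box: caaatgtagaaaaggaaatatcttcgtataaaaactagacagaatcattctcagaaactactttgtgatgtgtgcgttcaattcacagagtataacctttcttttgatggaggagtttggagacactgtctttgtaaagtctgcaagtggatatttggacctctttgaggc

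The box was searched as its 15-base core with 9 fixed bases, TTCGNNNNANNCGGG, on both strands. The array held 6196 matches on the plus strand and 16 on the minus strand, and 88.3% of the intervals between plus-strand matches were within 10 bases of 1 dimer. With 1 base added at each end, 24 different boxes occurred on the plus strand of the array. Those most frequent in knockout peaks are shown to give the variation among boxes of the reference at the positions of the peaks.
box 1: cTTCGttggAaaCGGGa
box 2: cTTCGatggAaaCGGGa
box 3: cTTCGctggAaaCGGGa

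Box 1 made up 902 of the 925 plus-strand boxes in knockout peaks of the array (97.5%), 621 of the 630 in control peaks and 5944 of the 6196 in the array (95.9%). Boxes 2 and 3 were each found 3 times in knockout peaks and 1 time in control peaks, beside 19 and 37 times in the array.

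Stretches from peaks at the top of their class are given next, each 1 monomer long and starting at the box nearest the peak's midpoint. They show how far sequence under peaks departs from the commonest monomer.
knockout-only peak, chr12:37074651-37074819: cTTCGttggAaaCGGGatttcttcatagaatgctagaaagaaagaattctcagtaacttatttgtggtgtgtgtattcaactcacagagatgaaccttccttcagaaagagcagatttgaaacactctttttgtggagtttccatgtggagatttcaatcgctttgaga
knockout-only peak, chr12:35171378-35171546: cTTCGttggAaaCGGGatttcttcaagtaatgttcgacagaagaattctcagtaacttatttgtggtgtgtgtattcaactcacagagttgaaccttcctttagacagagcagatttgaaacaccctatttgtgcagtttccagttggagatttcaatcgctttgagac
knockout-only peak, chr12:37129664-37129832: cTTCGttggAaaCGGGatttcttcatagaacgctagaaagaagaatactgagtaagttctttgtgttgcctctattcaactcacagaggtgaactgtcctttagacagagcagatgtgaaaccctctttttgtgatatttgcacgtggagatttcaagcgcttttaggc
shared peak, chr12:35242706-35242874: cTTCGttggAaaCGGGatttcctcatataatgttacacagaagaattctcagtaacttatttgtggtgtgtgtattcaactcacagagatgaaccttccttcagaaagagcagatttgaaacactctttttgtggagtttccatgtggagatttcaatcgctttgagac

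The stretch at 37074651 occurred once in the array and was 84.6% identical to the commonest box monomer, whereas that at 35171378 occurred 154 times at 82.8% identity. The stretch at 37129664 occurred 35 times and differed from the commonest monomer by 1 edit. The shared stretch at 35242706 occurred 166 times at 82.8% identity. In the other shared peaks at the top of their class, at 35125309 and 35998278, the stretch was the commonest monomer itself, which occurred 428 times in the array. Box-bearing monomers of several kinds therefore lay under peaks of both classes.

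Of the 162 knockout peaks in the window, 95 overlapped a control peak and 67 were knockout-only (41.4%, interval 34.1 to 49.1%). Over the whole knockout list 18.9% of peaks were knockout-only. Of the 109 control peaks, 96 were shared and 13 were control-only (11.9%, 7.10 to 19.3%), whereas 32.8% of the whole control list was control-only. The window was thus above the list's share for knockout-only peaks and below it for control-only peaks, which is the pattern it was selected on. In alpha-satellite of the chromosomes other than 1, 5, 12 and 19, 42.1% of knockout peaks were knockout-only and 18.4% of control peaks control-only. The knockout-only share of the window was close to theirs, and that of chromosomes 1, 5 and 19 was higher (57.4%, 59.8% and 56.6%). The shares of the window depend on the overlap that is required. With a reciprocal overlap of 50%, 50.6% of its knockout peaks were knockout-only and 26.6% of its control peaks control-only. All 67 knockout-only and 13 control-only peaks stood at the same positions in the lists of unique peaks that the authors deposited. Knockout peaks covered 344 kb of the window (11.9%) and control peaks 242 kb (8.34%), which corresponds to 55.9 and 37.6 peaks per Mb.

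Knockout peaks were distributed along the entire array. Of 29 bins of 100 kb, 25 held a peak, and the knockout list had more peaks than the control list in 23 of them, as many in 1 and fewer in 1. Knockout-only peaks fell in 24 bins and control-only peaks in 11. The bin from chr12:35100001-35200000 had the most knockout-only peaks, with 8 among 13 knockout peaks against 6 control peaks. Those from chr12:35900001-36000000 and chr12:36600001-36700000 followed with 5 each, and in both the other knockout peak was shared and the control list had 1 peak. The bin from chr12:36400001-36500000 held no shared peak, with 4 knockout-only and 1 control-only peak. The exception was the first filled bin, chr12:34800001-34900000, with 3 control and 2 knockout peaks and no knockout-only peak. Bins of 250 kb gave more knockout peaks in 10 of 11.

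**Figure D1:**
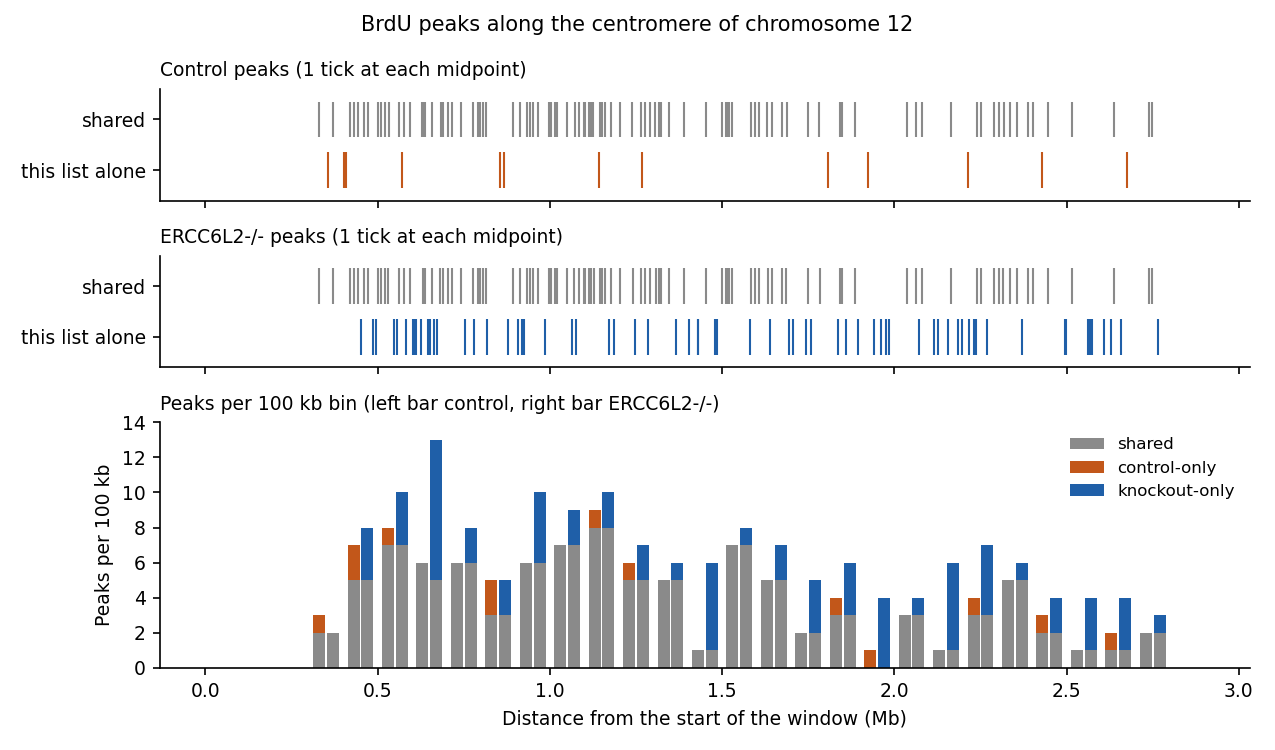
Midpoints of control and ERCC6L2-/- peaks by class (upper panels, 1 tick per peak) and peaks per 100 kb bin (lower panel, left bar control, right bar ERCC6L2-/-) against the distance from the start of the window in Mb. The gray shared peaks overlap a peak of the other list by at least 1 base, and the 67 blue knockout-only peaks are spread over 24 of the 25 filled bins, with 8 in the bin at 0.6 Mb.

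The number of shared peaks was lower towards the long arm, and that of knockout-only peaks was not. When the array was cut at its middle, the short-arm side held 92 knockout peaks, of which 60 were shared and 32 knockout-only (34.8%, 25.8 to 44.9%). The long-arm side held 67, of which 33 were shared and 34 knockout-only (50.7%, 39.1 to 62.3%). These intervals overlap. The control list had 69 peaks on the short-arm side and 38 on the long-arm side, with 8 and 5 control-only.

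The distance between neighbouring midpoints had a median of 15.3 kb in the control list and 10.9 kb in the knockout list. Gaps of at most 5 kb made up 16.7% of the gaps between control peaks and 27.3% of those between knockout peaks, and gaps of over 30 kb made up 20.4% and 9.94%. The longest stretch without a control peak, chr12:37016533-37134583 (118 kb), held 5 knockout peaks. The next, chr12:36424124-36535152 (111 kb) and chr12:36581429-36662742 (81.3 kb), held 4 and 3. In the knockout list the longest stretches without a peak were 76669, 58004 and 51497 bases long, with 1, 2 and 0 control peaks in them. The 3 longest control gaps each held knockout peaks, whereas 1 of the 3 longest knockout gaps held no peak of either list. The knockout list had 162 peaks in the window and the control list 109. Shorter spacing and fewer long gaps in the knockout list follow largely from these counts and are not a separate result.

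By definition knockout-only peaks overlapped no control peak, and few of them lay directly beside one. Distances from other places of the array to control peaks were not computed, so the values below only describe positions. The gap from a knockout-only peak to the nearest control peak had a median of 7.97 kb and ranged from 440 bases to 56.3 kb. Of the 67, 18 were within 5 kb of a control peak and 2 within 1 kb. Along the knockout list they formed 38 runs not interrupted by a shared peak, 23 of a single peak and 15 of 2 or more, which together held 44 peaks. The longest runs had 5 peaks. They spanned chr12:36392789-36486576, chr12:36683706-36739196 and chr12:37062891-37131121, with 1, 1 and 0 control peaks inside. The 13 control-only peaks lay a median of 12.4 kb from the nearest knockout peak (831 bases to 23.5 kb).

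Peaks of this centromere were wide in both genotypes. The median width was 1957 bases in the control list and 1968 bases in the knockout list, beside 697 and 732 bases over the whole lists. In alpha-satellite of the chromosomes other than 1, 5, 12 and 19 the medians were 1719 and 1619.5 bases, nearer to those of the window. Expressed in repeats, both medians were near 1.4 units of 1359 bases (1.44 and 1.45), and 81 control peaks (74.3%) and 120 knockout peaks (74.1%) were wider than 1 unit. Shared peaks were the widest, with medians of 1982.5 bases in the control list and 2179 bases in the knockout list. A wider peak meets the required overlap of 1 base more easily, so this order is partly built into the classes. Knockout-only peaks had a median of 1626 bases (394 to 3589) and control-only peaks 1680 bases (607 to 3639), so these classes spanned nearly the same range.

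**Figure D2:**
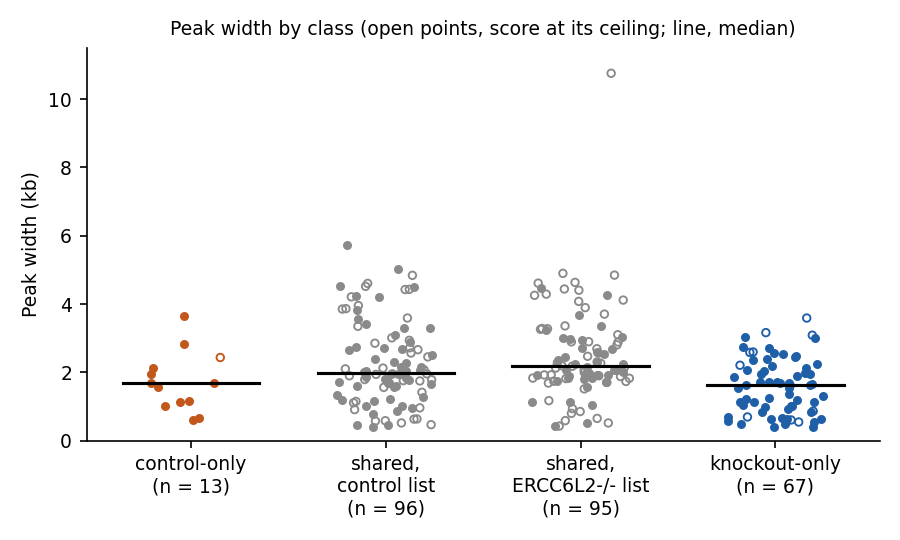
Width in kb of every peak in the window by class; open points have a score at its ceiling and black lines are medians. Knockout-only peaks lie between 394 and 3589 bases, and only a single peak, of 10753 bases, exceeds 6 kb.

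The deposited score is a p-value on the -log10 scale, with values above 310.6 written as infinite, referred to here as the ceiling. At the ceiling were 43 control peaks (39.4%, 30.8 to 48.8%) and 64 knockout peaks (39.5%, 32.3 to 47.2%). Over the whole lists 71.4% and 61.7% were at the ceiling, beside 49.2% and 42.8% in alpha-satellite of the chromosomes other than 1, 5, 12 and 19. In this respect too the window was nearer to the alpha-satellite of those chromosomes than to the whole lists. On chromosomes 1, 5 and 19, by contrast, 70.5%, 82.9% and 78.7% of knockout peaks in alpha-satellite were at the ceiling, above the whole knockout list. Within the window 54 of the 95 shared knockout peaks (56.8%, 46.8 to 66.3%) but 10 of the 67 knockout-only peaks (14.9%, 8.31 to 25.3%) were at the ceiling. The median score of knockout-only peaks was 169.1 (lowest 77.7). Of the control peaks, 42 of 96 shared (43.8%) and 1 of 13 control-only peaks were at the ceiling, and control-only peaks had a median score of 117. The class of a peak depends on whether a peak was called in the other list, so class and score are not independent. Ceiling shares by class were not computed outside the window, and these values are a description of the classes.

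The knockout-only peaks with the highest scores, with ties broken by width, were chr12:37072862-37076450 (3589 bases, 10 boxes), chr12:35169759-35172920 (3162 bases, 9 boxes) and chr12:37128035-37131121 (3087 bases, 8 boxes), all at the ceiling. The first and the last of them lay inside the 118-kb stretch without a control peak. The highest control-only peaks were chr12:34907875-34910308 (2434 bases, at the ceiling), chr12:34853876-34855558 (1683 bases, score 297) and chr12:35366090-35369728 (3639 bases, score 284). The shared knockout peak with the greatest width, chr12:35125309-35136061, was 10753 bases long, held 30 boxes, and overlapped 2 control peaks of 4839 and 4535 bases, the second of which extended beyond it. It was followed by chr12:35240423-35245319 (4897 bases) and chr12:35998278-36003122 (4845 bases).

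Shared peaks allowed the lists to be compared at the same place. Of the 95 shared knockout peaks, 93 paired with a single control peak that overlapped no other. The overlap had a median of 76.9% of the bases that either peak covered, and the midpoints were a median of 213.5 bases apart. Both peaks of a pair were at the ceiling in 38 cases. In the remaining 55, the score was higher in the knockout list in 42 and in the control list in 13. The knockout peak was the wider in 61 pairs and the control peak in 32. Over the rest of the lists, of 6688 pairs, the knockout score was higher in 441 and the control score in 1796, and the control peak was wider in 4546. On chromosome 12 outside the window the numbers were 15 and 87 of 269 pairs. Scores depend on read depth, which is unknown here, and its part in these counts was not tested. The window was chosen by its peaks, so the pairs outside it are given as a description.

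**Figure D3:**
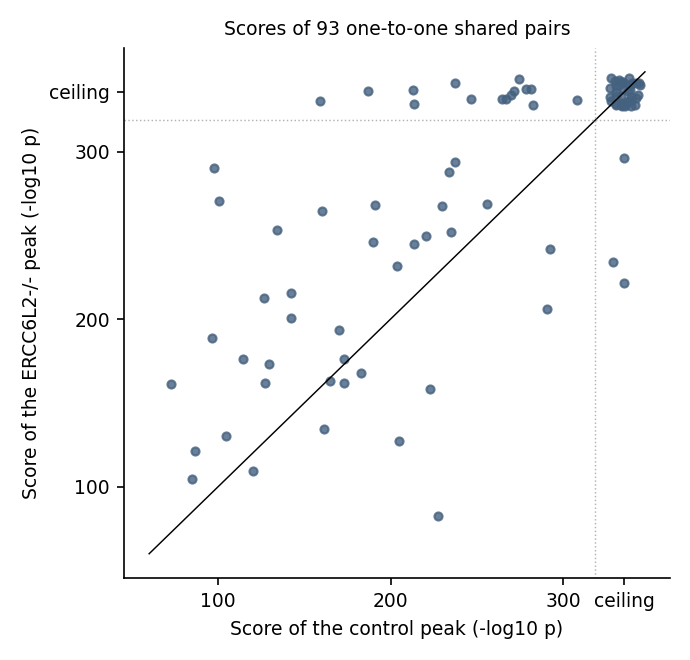
Score of the ERCC6L2-/- peak against that of the control peak (-log10 p) for the 93 one-to-one shared pairs of the window, with scores at the ceiling spread at random within a band and a line of equal scores. Among the pairs not at the ceiling in both lists, 42 lie above the line and 13 below it.

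The repeat structure under the peaks was compared with that of the array outside peaks, which the choice of the window did not use. Every peak of either list held at least 1 CENP-B box. Plus-strand boxes of the array lay a median of 340 bases apart, and the narrowest peak was 394 bases wide. Most stretches of peak width would therefore hold a box anywhere in the array. The median number was 4 in knockout-only and control-only peaks, 6 in shared knockout peaks and 5 in shared control peaks. Per kb, knockout-only peaks had a median of 2.91 boxes (quartiles 2.53 and 3.09), shared knockout peaks 2.75 and control-only peaks 2.65. Bases in knockout peaks of the array held 2.77 boxes per kb and those in control peaks 2.73, beside 2.55 outside all peaks. In the central 300 bases a box lay in 48 of 67 knockout-only peaks (71.6%), 73 of 95 shared knockout peaks (76.8%), 80 of 96 shared control peaks (83.3%) and 8 of 13 control-only peaks (61.5%). No such share was computed outside peaks, so these values do not set peaks apart from the array. The median GC content was 38.6% in each class, beside 38.5% of bases outside peaks.

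Pooled over the array, dimers in peaks kept the order of the unit more often than dimers outside peaks. To score regularity, the array was cut at its boxes, and each dimer was assigned to the most similar of the 4 dimers of a unit from chr12:35164242-35165600. This unit was chosen because its words had the most copies in the window. It overlaps the knockout-only peak chr12:35164178-35165295, and no other unit was tried. Dimers were placed by their midpoints here, and these counts were made in another way than that of the 840 dimers above. In knockout peaks 97.7% of 985 dimers were followed by the dimer that comes next in the unit, and in control peaks 97.4% of 689. Outside all peaks it was 92.8% of 5891. The value was 97.1% in bases covered by knockout peaks alone and 98.1% in bases covered by both lists.

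Sequence under peaks was also more often repeated. The copies of each 50-base word of the window were counted on both strands of hg38. In knockout peaks of the array a word had a median of 1098 copies and the lower quartile was 330 copies. In control peaks these values were 1095 and 337, and in knockout peaks alone 1100 and 239. Outside peaks the median was 1009 but the lower quartile was 13. A single copy was found for 2.96% of words in knockout peaks, 3.17% in control peaks and 6.34% outside peaks. The difference was larger with 100-base words, which had a median of 409 copies in knockout peaks, 397 in control peaks and 25 outside.

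The same was seen when the array was divided without regard to peaks. Stretches of 1000 bases were ranked by the share of their words with at least 100 copies and divided into 4 groups of 599 or 600 stretches. Knockout peaks covered 1.89%, 7.52%, 15.3% and 31.4% of the bases of these groups, from the least to the most repeated, and control peaks covered 1.43%, 4.31%, 10.2% and 23.2%. The cover increased from group to group in both lists. Cover by knockout peaks was 1.32, 1.74, 1.495 and 1.35 times that by control peaks, with more cover by the knockout list in each group of the whole array. Knockout peaks covered 344 kb of the window and control peaks 242 kb, and the window was chosen by its peaks. More knockout cover in each group follows largely from these totals and is not a separate result. The ratio varied along the array. On the short-arm side it was 1.003 in the least repeated group, with 1.640% against 1.635% of bases, and 1.31 in the next one (11.6% against 8.84%). On the long-arm side it was 2.21 (1.97% against 0.893%) and 3.404 (6.87% against 2.02%) in these groups. Control cover was low there, so these ratios rest on few bases, and they were not tested. How reads with several equally good places were aligned is not given in the sources used here, and its part in these values was not tested.

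**Figure D4:**
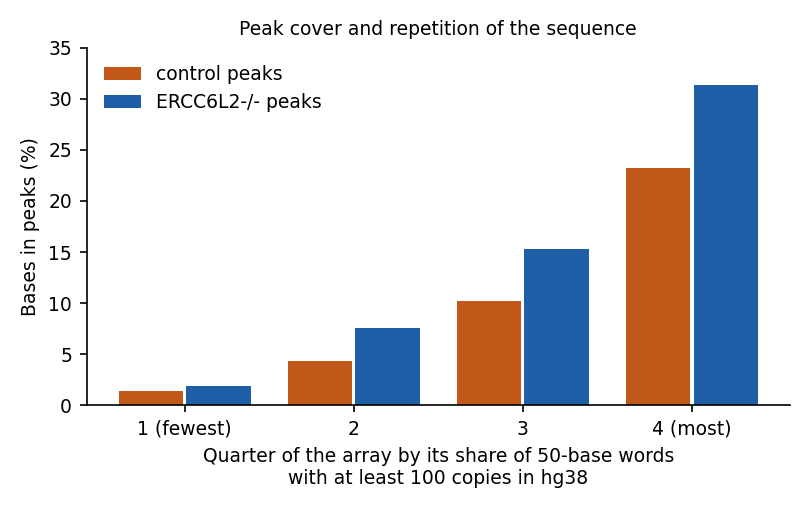
Bases of the array inside control and ERCC6L2-/- peaks (%) in 4 equal groups of 1000-base stretches, ranked by the share of their 50-base words with at least 100 copies in hg38. Cover increases from 1.43% to 23.2% for control peaks and from 1.89% to 31.4% for ERCC6L2-/- peaks.

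A position within the unit was assigned to 158 knockout and 106 control midpoints. Knockout midpoints fell in dimers 1 to 4 in 33, 37, 38 and 50 cases (20.9%, 23.4%, 24.1% and 31.6%), and control midpoints in 23, 27, 29 and 27. The array itself was made of 26.1%, 25.3%, 24.3% and 24.2% of these dimers. The interval for knockout midpoints in dimer 4, 24.9 to 39.3%, lies just above the share of that dimer in the array, and the other intervals include theirs. The starts of peaks gave another order, with dimer 3 the commonest in both lists (53 of 158 knockout peaks, 33.5%, and 38 of 106 control peaks, 35.8%) and dimer 4 the rarest (30 and 16). For starts in dimer 3 the intervals, 26.7 to 41.2% (knockout) and 27.4 to 45.3% (control), lie above its share in the array. The interval for control starts in dimer 4, 9.51 to 23.1%, lies below its share, and the other start intervals include theirs. By class, starts of shared peaks fell in dimers 1 to 4 in 22, 20, 35 and 15 cases (knockout) and 24, 19, 36 and 14 (control). Starts of knockout-only peaks did so in 16, 17, 18 and 15 cases, and those of control-only peaks in 6, 3, 2 and 2. The excess in dimer 3 thus lay in shared peaks, which are overlapping places counted once in each list. The intervals for dimers cover counting error within 1 merged list, and no preference for a dimer was tested.

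Few peaks departed from this sequence. The median number of copies of its words was below 100 in 4 control and 6 knockout peaks, of which 8 were shared. The 2 knockout-only ones started at position 36204483 (1210 bases, median 97 copies) and at 37264913 (1971 bases). The latter, outside the array and the last peak of the window, was the only peak in which most words (80.7%) had a single copy. It held 3 boxes and had a score of 172.1.

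Chromosomes 1, 5 and 19 have centromeres with similar numbers of knockout-only peaks and were set beside that of chromosome 12. Their alpha-satellite held 129, 117 and 122 knockout peaks, of which 74, 70 and 69 were knockout-only (57.4%, 59.8% and 56.6%), and 61, 55 and 56 control peaks. Chromosome 12 had more peaks of both lists than these, and 41.4% of its knockout peaks were knockout-only. Including alpha-satellite outside the window it held 111 control and 164 knockout peaks, the highest numbers among the 24 chromosomes. Peaks on the other 3 were narrower, with median knockout widths of 1374, 1368 and 1367 bases, and more often at the ceiling (70.5%, 82.9% and 78.7% of knockout peaks). Of their one-to-one pairs, the knockout score was higher in 16, 12 and 22 and the control score in 3, 0 and 1. These values describe regions chosen for their counts and were not tested.

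Most 50-base words of the array were found in hg38 on chromosome 12 alone, inside and outside peaks. Of all copies in hg38 of the 50-base words of its knockout peaks, 96.6% were on chromosome 12, and 86.9% of the words occurred on no other chromosome. In the array outside peaks the values were much the same, with 96.6% of copies and 88.6% of words within the window alone. For knockout peaks in the alpha-satellite of chromosomes 1, 5 and 19, 30.9%, 30.4% and 30.2% of copies were on the same chromosome, and most of the others were on the remaining 2 of these 3. Words that chromosome 12 peaks had in common with other chromosomes were most often found on chromosome 10, which held 7.61% of the words of knockout peaks in the array. Copies on chromosomes 1, 5 and 19 made up 0.184%, 0.189% and 0.185% of all copies.

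**Figure D5:**
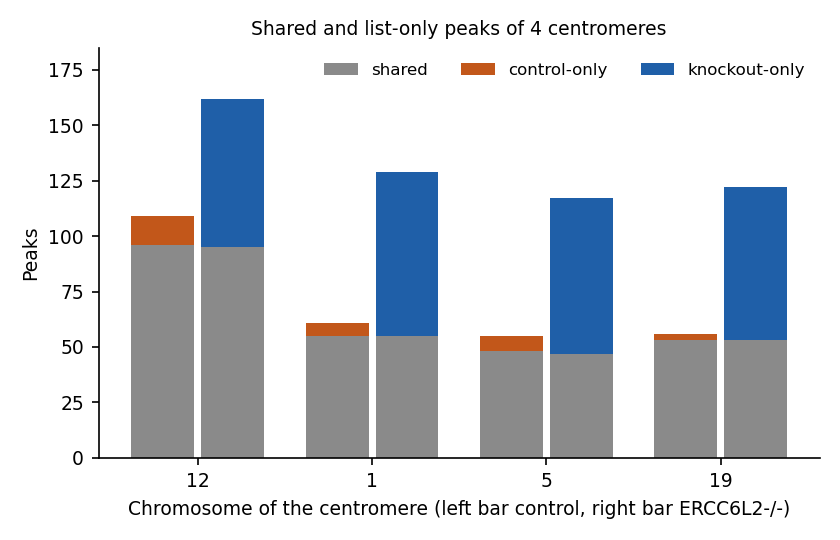
Number of peaks in the chromosome 12 window and in the alpha-satellite of chromosomes 1, 5 and 19, by list (left bar control, right bar ERCC6L2-/-) and class. Chromosome 12 has the most peaks in both lists, with 67 of 162 knockout peaks in the knockout-only class against 74 of 129, 70 of 117 and 69 of 122 on the others.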

How the data were processed

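Nascent DNA was measured in 3 control and 3 ERCC6L2-/- samples. The authors used TrimGalore for trimming, BOWTIE2 for alignment to hg38 and Picard for removal of duplicates, called peaks per sample with MACS2, merged the samples of a genotype with MSPC, and took unique peaks with BEDtools. The deposited lists give positions and, for consensus peaks, the -log10 p-value as a score. Thresholds are not given in the sources used here.

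Members and lists were chosen with earlier results of these data known. Alpha-satellite was defined as 1000-base windows at least 50% identical to the sequence 169 to 172 or 339 to 342 bases away, joined over up to 10 kb, in runs of at least 10 kb, without windows that repeat at shorter distances. Peaks named were the 3 highest-scoring of each class (ties by width), the longest gaps and the bins with the most knockout-only peaks. Sequences were read with pysam 0.24.0 and samtools 1.23.1. Word copies were counted without alternate contigs, and dimers were aligned with edlib. Overlap, box and word counts were tested on simulated data. Python 3.11.15, numpy 2.4.6 and scipy 1.17.1 were used.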

Additional observations from a re-analysis of the deposited data

How the results depend on the processing

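Of 54 alternative values for 26 results, 37 stayed within the interval of the main value or within 1.5 times of it where it had none, and 17 moved. With a reciprocal overlap of 50%, 26.6% of control peaks were control-only and 50.6% of knockout peaks knockout-only. The other definitions of overlap, score and membership gave 9.30 to 11.9% and 39.1 to 41.4%. Since the median score of both lists is at the ceiling, the restrictions to the ceiling and to the median are the same. At the ceiling alone the median spacing was 34.6 kb (control) and 24.8 kb (knockout), since fewer peaks remain, and the median knockout width was 2273 bases. Placed by their starts, 15.1% of control and 18.99% of knockout peaks were in dimer 4, and 33.5% of knockout peaks in dimer 3. A box in the central 300 bases was found in 61.5% of control-only, 71.6% of knockout-only, 83.3% of shared control and 76.8% of shared knockout peaks. The array has no such value to set beside them. Words of 100 bases had medians of 409 (knockout peaks), 397 (control peaks) and 25 copies (outside peaks). In alternatives chosen after seeing the data, the least and most repeated groups were recomputed with 100-base words and on either side of the middle of the array. On the long-arm side control cover was 0.893% and 12.98%, against 1.97% and 22.0% for knockout peaks. On the short-arm side it was 1.635% and 29.2%, against 1.640% and 37.998% for knockout peaks. No paired analysis was possible because each list merges its samples, and for the same reason no sample could be left out.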
